A study of Homo sapiens with 5 samples.

Results

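Gene expression was compared between 2 of the 5 arrays of a differentiation experiment in H1, a long-established line of human embryonic stem cells. The first held RNA from cells given insulin (labelled INS) and the other RNA from cells given IWP2 together with LY294002, taken by their treatment labels, and all 20041 genes named by the platform annotation entered the comparison. On every array mesoderm had first been induced with CHIR99021, a GSK3 inhibitor, on matrigel; the agents were then present from day 2 to day 5 and RNA was collected on day 10. The other 3 arrays, which appear here only for reference, held cells left in basal differentiation medium (the control), cells given IWP2 alone and cells given LY294002 alone. The arrays compared therefore differed in 3 agents at once, and both had received CHIR99021. Doses and the number of cultures behind an array are not given in the sources used here, and each condition had 1 array.

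Insulin binds its receptor and, at high levels, the related IGF1 receptor, and both signal through phosphoinositide 3-kinase (PI3K) and AKT. LY294002 blocks PI3K (and other kinases of that family), and IWP2 blocks Porcupine, the enzyme that lipidates WNT proteins so that they can be secreted. Mesoderm formed under WNT signaling can go on to cardiac, vascular, mesenchymal and other fates, and blocking WNT secretion after induction is a standard step for obtaining cardiomyocytes from human stem cells.

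Values are log2 intensities after background correction and quantile normalization, and every difference is given on that scale unless called a fold. Detection required a detection p-value under 0.01. Where only 1 of the arrays detected a gene there is no measured fold, so its bright value was set against the dim array's lowest detected signal, or its own dim value where that was higher, and the result is written as "at least". A gene said to be detected only with insulin, or only with both inhibitors, is so on these 2 arrays. The sizes of ratios and bounds rest on the background correction: without it SERPINA1's ratio of 175-fold was 60.7-fold and the bound of NKX2-5 of 14.4-fold was 5.11-fold. Brightness was close on both arrays, with a median raw intensity of 118.2 with insulin and 115.7 with both inhibitors, while 9284 and 8633 genes were detected. With 1 array a condition there is no replicate error, so no difference was tested, and in bulk RNA fewer cells of a type and less RNA per cell cannot be told apart.

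The cells are labelled as embryonic stem cells, but by day 10 the defining pluripotency genes POU5F1 and NANOG were not detected on any of the 5 arrays. SOX2, a factor of both pluripotent and neural cells, was detected on 1 of all 5 arrays, that of both inhibitors, at 5.94. DPPA4, another marker of these cells, read 7.48 with insulin, 7.98 in the control, 7.51 with IWP2 and 6.02 with LY294002. It was undetected with both inhibitors, so that insulin was at least 4.06-fold higher. Of the pluripotency list, 11 genes were detected on at least 1 of the arrays compared. Genes of cardiac muscle, of fetal liver or yolk sac, and of connective tissue were detected as well, and they held many of the highest differences.

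Of the 7782 genes detected on both arrays, 28.8% differed by 2-fold or more. Insulin had the higher value for 1051 genes (13.5%) and both inhibitors for 1194 (15.3%), the background against which the counts of each gene group are to be read, and the median difference over all 7782 was -0.07. Without background correction the counts were 551 and 587. The largest differences lay on the insulin side: 74 genes were at least 8-fold higher with insulin against 38 with both inhibitors, and 27 against 11 were at least 16-fold higher. A further 1502 genes were detected only with insulin and 851 only with both inhibitors, with 391 and 223 of them past 2-fold by their bound. Counting these, 14.2% of the 10135 genes detected on at least 1 of the arrays were past 2-fold towards insulin and 14% towards both inhibitors. Among the 10 possible pairs of arrays in the series this pair had the highest share of genes past 2-fold, and control against insulin the lowest, at 3.58%.

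**Figure D1:**
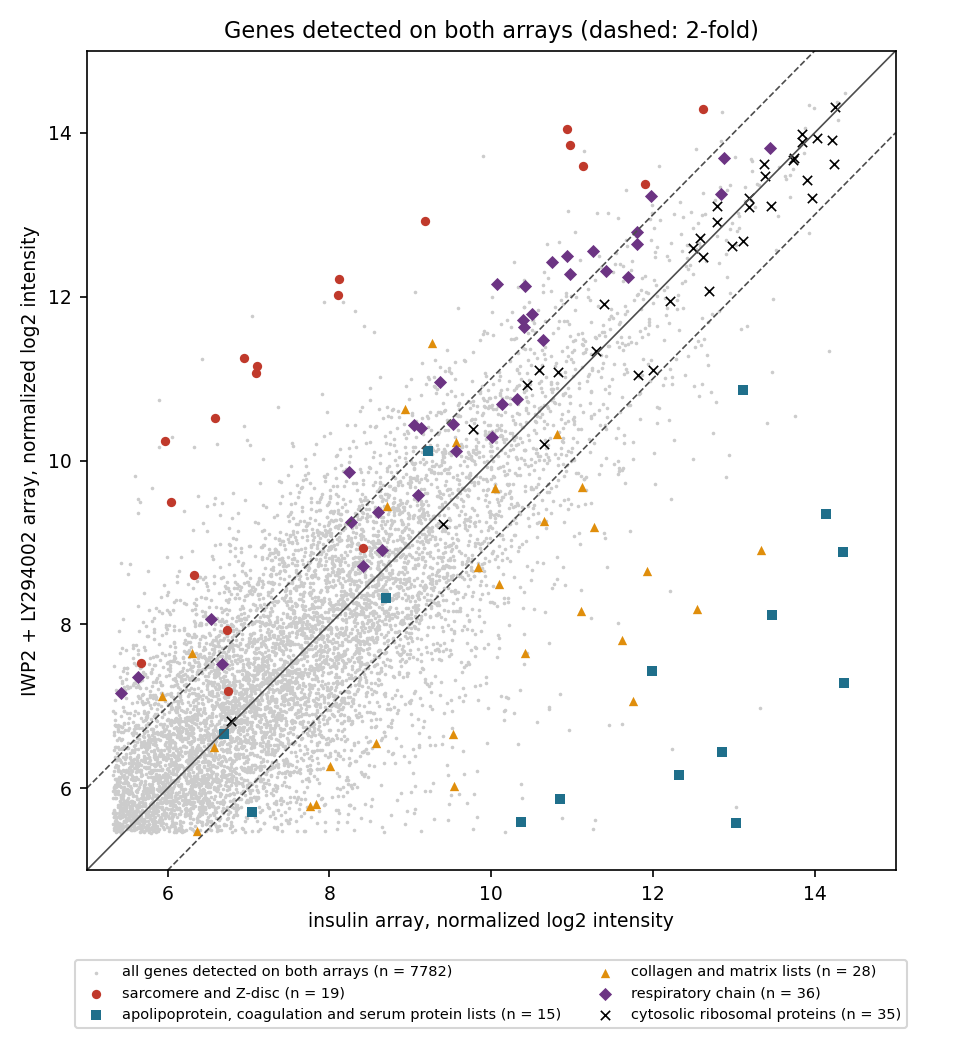
Normalized log2 intensity with both inhibitors (vertical axis) against insulin (horizontal axis), 1 point for each gene detected on both arrays, with the dashed lines at a 2-fold difference. Points of the apolipoprotein, coagulation and serum protein lists and of the collagen and matrix lists lie mostly below the diagonal, and those of the sarcomere and respiratory chain lists above it, 17 of the 19 sarcomere genes past the upper line.

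Genes of the liver and yolk sac secretory programme gave the highest ratios towards insulin. The yolk sac and the fetal liver secrete carrier proteins, lipoproteins and clotting factors, and these were bright with insulin and dim or undetected with both inhibitors. Alpha-fetoprotein (AFP), the main serum protein of the embryo, read 14.34 with insulin, 14.18 in the control, 12.71 with IWP2, 10.52 with LY294002 and 8.89 with both inhibitors. Transthyretin (TTR), a carrier of thyroid hormone and retinol-binding protein, read 14.36 with insulin, 13.93 in the control, 12.71 with IWP2, 10.25 with LY294002 and 7.28 with both inhibitors. The protease inhibitor alpha-1-antitrypsin (SERPINA1) read 13.03 with insulin, 12.46 in the control, 10.34 with IWP2, 8.16 with LY294002 and 5.57 with both inhibitors. All 3 genes had the same order of arrays, and the differences between insulin and both inhibitors were 5.46, 7.08 and 7.45, the last a 175-fold ratio.

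Of 28 serum proteins listed, 19 were detected on at least 1 of the arrays. On both arrays 5 were measured, of which 4 were at least 2-fold higher with insulin and 0 with both inhibitors. The other 14 were detected only with insulin, 11 of them past 2-fold. Fetuin-A (AHSG), which binds calcium phosphate in plasma, was at least 151-fold higher with insulin. RBP4, the retinol carrier, was at least 80.5-fold higher. Albumin (ALB), the main plasma protein of later life, was at least 11.8-fold higher. The list's median difference was 2.78, beside 0.00 over all genes detected on at least 1 array, with genes seen on 1 array counted at their bound in both. It was 1.54 without background correction and 5.46 over the members measured on both arrays alone.

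Every detected member of the apolipoprotein list was higher with insulin. Of 11 detected, 6 were measured on both arrays and all of those were past 2-fold; the other 5 were detected only with insulin, with 4 past 2-fold. The list median was 4.79. APOA4, a protein of chylomicrons and high-density lipoprotein, had the highest bound of any gene here, at least 199-fold, which was 65.5-fold without background correction. APOC3, which slows the clearance of triglyceride-rich particles, was at least 92.0-fold higher. APOB, the structural protein of very-low-density lipoprotein, was higher by 4.99, and MTTP, which loads lipid onto it, by 4.77. APOA2 and APOA1, both proteins of high-density lipoprotein, were higher by 5.36 and 4.79. APOE, which many cell types make, had the smallest of the differences measured on both arrays, 2.25.

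The clotting factors were for the most part below detection with both inhibitors. The fibrinogen chains FGA and FGB were measured on both arrays and were higher with insulin by 6.41 and 6.15, and the remaining chain FGG was detected only with insulin and was at least 79.2-fold higher. Antithrombin (SERPINC1), plasminogen (PLG) and factor X (F10) were at least 14.4, 12.2 and 10.3-fold higher. Of the 16 members detected, 12 were seen only with insulin, 7 of them past 2-fold, and none only with both inhibitors. Protein S (PROS1), a clotting inhibitor also made outside the liver, read 9.22 with insulin and 10.12 with both inhibitors, the only member with a lower value on the insulin array.

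The regulators of hepatocyte and endoderm identity were mostly dim, and few were measured on both arrays. CEBPA, a factor of hepatocyte and fat cell maturation, read 10.27 with insulin, 9.08 in the control, 7.82 with IWP2 and 6.13 with LY294002 and was undetected with both inhibitors, so that insulin was at least 28.1-fold higher. FOXA2, a pioneer factor of endoderm, read 10.22 with insulin, 10.08 in the control, 8.75 with IWP2 and 6.64 with LY294002 and was likewise undetected with both inhibitors, a ratio of at least 27.1-fold. CREB3L3, a liver factor of lipid metabolism, was at least 10.9-fold higher with insulin. PROX1 and EOMES went the other way: both were detected only with both inhibitors, at least 3.44 and 2.46-fold higher. PROX1 acts in liver, lymphatic vessels and heart, and EOMES in the primitive streak. The endodermal and cardiac factors GATA4 and GATA6 differed by 0.70 and 0.09, both under 2-fold.

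Enzymes of detoxification were mixed. GSTA2 was higher with insulin by 5.67 and GSTA1 by at least 63.6-fold, but these glutathione transferases are near-identical in sequence and their probes may share signal. Over the list of transferases and metallothioneins, 2 of 13 genes measured on both arrays were past 2-fold towards insulin and 1 towards both inhibitors. A further 5 were detected only with insulin (4 past 2-fold) and 2 only with both inhibitors (1 past 2-fold). MGST3, a microsomal transferase, was higher with both inhibitors by 1.83.

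The 15 highest ratios towards insulin among genes measured on both arrays also took in DLK1, H19, NHERF1, IGFBP3, LEAP2 and FRZB. DLK1, an imprinted membrane protein of progenitor cells and fetal liver, read 13.02 with insulin, 12.58 in the control, 11.33 with IWP2, 8.64 with LY294002 and 5.77 with both inhibitors. NHERF1, a scaffold of apical membranes, was higher with insulin by 5.76, and LEAP2, a peptide secreted by liver and gut, by 5.24. DPYS, an enzyme of pyrimidine breakdown in liver and kidney, was detected only with insulin and was at least 53.5-fold higher.

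**Figure D2:**
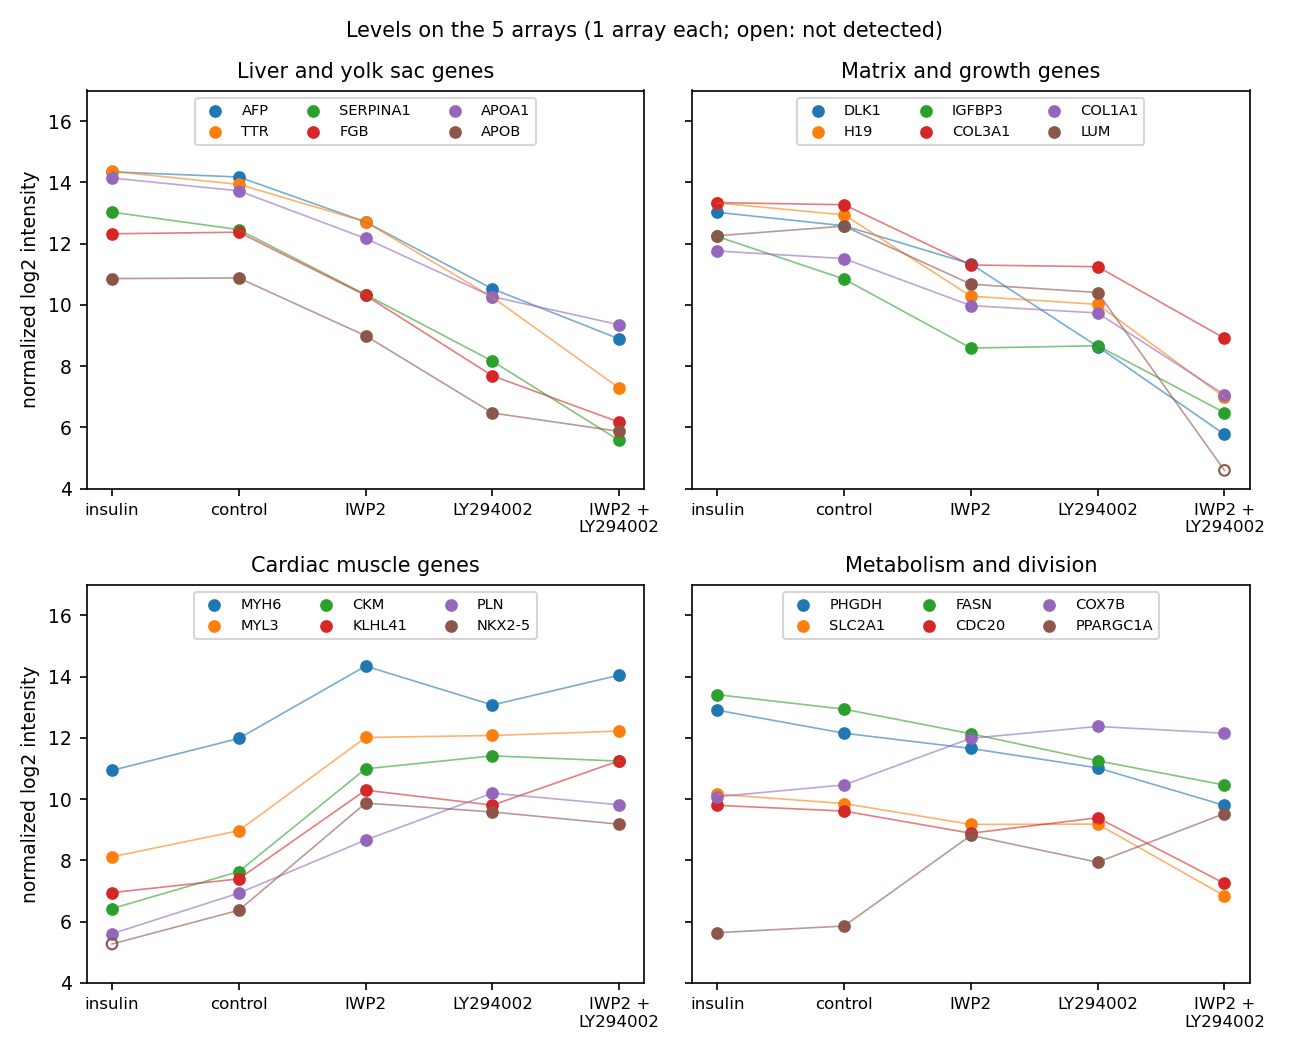
Normalized log2 intensity (vertical axis) of selected genes of the liver and yolk sac, matrix and growth, cardiac muscle, and metabolism and division on each of the 5 arrays (horizontal axis, ordered from insulin to both inhibitors), 1 array a condition. The liver gene SERPINA1 is at 13.03 with insulin and 5.57 with both inhibitors, and the muscle gene CKM at 6.42 and 11.24; lines join a gene's values and imply no order of the arrays, and open circles were not detected.

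The promoters of the liver genes give a sequence context for this group. FGA, FGB and AFP are shown because they belong to the genes with the highest ratios towards insulin and hold the short HNF1 motif GTTAAT (capitals, either strand), bound by the HNF1 factors of liver and yolk sac; in AFP the TATA motif TATAAA is also in capitals. Each is a stretch of 140 bases, 5′ to 3′ on the gene's strand, from RefSeq GRCh38.p14: FGA from chr4:154590743-154590882 (minus strand), FGB from chr4:154562840-154562979 (plus strand) and AFP from chr4:73436081-73436220 (plus strand).
FGA: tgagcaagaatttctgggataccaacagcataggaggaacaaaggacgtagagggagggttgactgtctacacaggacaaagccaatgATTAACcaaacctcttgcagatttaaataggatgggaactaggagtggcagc
FGB: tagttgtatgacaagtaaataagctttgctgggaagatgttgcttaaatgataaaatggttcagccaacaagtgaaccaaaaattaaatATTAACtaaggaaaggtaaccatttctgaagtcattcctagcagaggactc
AFP: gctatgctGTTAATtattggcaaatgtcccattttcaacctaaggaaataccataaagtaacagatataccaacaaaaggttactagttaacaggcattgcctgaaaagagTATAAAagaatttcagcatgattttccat
Of the 25 genes named highest with insulin, 17 had a promoter in the RefSeq table, and GTTAAT was found on either strand within 250 bases before the start in 6 of them (35.3%): FGA, FGB, AFP, GSTA1, GSTA2 and LEAP2. The share was 6.22% over all 27305 promoters, 3.1% over genes detected on both arrays and 2.48% over the genes at least 2-fold higher with insulin. On the opposite side it was found in 2 of 20 (10%) of the genes named highest with both inhibitors, PLN and SMYD1, and in 4.36% of the genes at least 2-fold higher there. The near-identical GSTA1 and GSTA2 hold the motif at the same place, 180 to 175 bases before the start. FGA and FGB lie near each other on chromosome 4, so the 6 promoters are not independent. A match describes the letters only, not binding.

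Connective tissue genes formed the second large group higher with insulin. Collagens form the fibres and sheets of the extracellular matrix, and 10 of the 15 measured on both arrays passed 2-fold towards insulin against 2 with both inhibitors. The list median was 1.39. The fibrillar collagens COL1A1, COL1A2 and COL3A1 were higher by 4.69, 4.36 and 4.43. COL3A1 read 13.34 with insulin, 13.27 in the control, 11.30 with IWP2, 11.24 with LY294002 and 8.91 with both inhibitors. COL6A3, a beaded-filament collagen, was detected only with insulin and was at least 40.4-fold higher. The basement membrane chains COL4A1 and COL4A2 differed less, by 1.44 and 1.97.

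The collagens that went the other way were those of cartilage and minor types. COL2A1, the main collagen of cartilage, read 8.93 with insulin and 10.63 with both inhibitors, and COL16A1 was higher with both inhibitors by 1.20. COL9A1, which coats cartilage fibrils, was detected only with both inhibitors, at least 3.23-fold higher.

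Non-collagenous matrix genes had a similar split. Of 25 detected, 8 were past 2-fold towards insulin and 2 towards both inhibitors on both arrays, and 12 more were seen only with insulin (9 past 2-fold); the median was 1.73, and 0.96 with no filter on detection. The small proteoglycans lumican (LUM) and decorin (DCN), which space collagen fibrils, were at least 111 and 25.2-fold higher with insulin. TGFBI, an adhesion protein induced by TGF-beta, was at least 63.3-fold higher. Fibrillin-2 (FBN2), a microfibril protein of the embryo, read 9.26 with insulin, 9.37 in the control, 11.77 with IWP2, 11.29 with LY294002 and 11.44 with both inhibitors. It and thrombospondin-1 (THBS1, 1.36) were the members past 2-fold towards both inhibitors.

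Among laminins and integrins, which tie cells to basement membrane, 6 of 11 were past 2-fold towards insulin. ITGA5 and ITGA3, receptors for fibronectin and laminins, were higher by 2.08 and 1.99. LAMA4, a laminin chain of vessels and heart muscle, was detected only with both inhibitors of the pair, at least 6.58-fold higher. ITGAV, the alpha-v integrin, was also higher there, by 2.41.

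Markers of several other cell types were read beside these lists. For fibroblasts and mural cells, PDGFRB, a receptor of pericytes and fibroblasts, was at least 24.5-fold higher with insulin, and SNAI2, a factor of mesenchymal cells, at least 7.07-fold. RGS5, a pericyte marker, was higher with both inhibitors by 2.25, and the list median was 1.07 over 13 members. All 12 detected members of the epicardial and mesothelial list had higher values with insulin, 4 past 2-fold on both arrays and 6 past it by their bound. WT1 and TBX18, factors of the epicardium, were at least 3.47 and 2.82-fold higher. The retinoic acid enzyme ALDH1A1 differed by 4.50.

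Epithelial genes followed the same direction. E-cadherin (CDH1), the adhesion protein of epithelia, was at least 21.2-fold higher with insulin, and EPCAM, an epithelial surface protein, was higher by 2.74. Of 16 members detected, 10 were seen only with insulin and none only with both inhibitors. Desmoplakin (DSP), which both epithelia and heart muscle use in their junctions, read 8.09 with insulin and 8.64 with both inhibitors.

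The endothelial list was dim, with 2 of 11 members measured on both arrays, and these diverged. TEK, the angiopoietin receptor, was higher with insulin by 3.65, while KDR, a VEGF receptor of early vascular and cardiac progenitors, was higher with both inhibitors by 1.27. CDH5 and CD34, an endothelial cadherin and a vascular and blood progenitor marker, were detected only with insulin, at least 2.93 and 4.39-fold higher. Of the 9 members detected only with insulin, 3 were past 2-fold by their bound. PECAM1, another endothelial marker among them, was at least 1.40-fold higher, a bound under 2-fold. The fetal globin HBG2 and embryonic globin HBE1 were also detected only with insulin, at 7.45 and 6.05, though HBG2 and HBG1 are too alike for their probes to be separated with certainty. Of 6 smooth muscle genes measured on both arrays, 3 were past 2-fold towards insulin and 0 towards both inhibitors. CALD1 and TAGLN were higher with insulin by 1.81 and 1.39, though another probe of each gave 0.31, and CNN2 by 1.18. ACTG2 was detected only with insulin of the pair, at least 6.44-fold higher. ACTA2, which early heart muscle also uses, read 11.96 with insulin and 12.94 with both inhibitors, under 2-fold.

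The genes of the contractile apparatus were the clearest group higher with both inhibitors. Sarcomeres are the repeated units of actin, myosin and Z-disc proteins through which heart muscle contracts. Of 19 such genes measured on both arrays, 17 passed 2-fold towards both inhibitors and 0 towards insulin; 14 more were detected only with both inhibitors (11 past 2-fold) and 2 only with insulin (0 past 2-fold). The list median was -2.41, and -1.33 without background correction. With insulin 21 members were detected, in the control 25, with IWP2 33, with LY294002 31 and with both inhibitors 33.

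The atrial and early-heart myosin heavy chain MYH6 read 10.94 with insulin, 11.98 in the control, 14.34 with IWP2, 13.07 with LY294002 and 14.05 with both inhibitors. The ventricular light chain MYL3 was higher with both inhibitors by 4.11, and the atrial light chains MYL7 and MYL4 by 2.47 and 2.87. The ventricular heavy chain MYH7 was detected only with both inhibitors of the pair, and was at least 9.98-fold higher. The detected myosins of both chamber types thus lay on the same side, while the ventricular light chain MYL2 was detected on neither array. The troponin TNNC1, the calcium sensor of the thin filament, differed by 3.74, and MYOM1, a protein of the M-band, by 4.05.

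Genes that assemble and maintain the sarcomere were also among the highest ratios of the list. KLHL41, a Kelch protein of sarcomere assembly, was higher with both inhibitors by 4.30, and TRIM55, a titin-associated ubiquitin ligase, by 4.27. The Z-disc protein NEBL, the small heat shock protein HSPB7 and the muscle protein SMPX differed by 3.97, 3.92 and 3.91. SMYD1, a methyltransferase of muscle, had the highest bound towards both inhibitors, at least 24.9-fold. Desmin (DES) and MYOM2 were the exceptions that were detected only with insulin, with bounds under 2-fold.

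The promoters of HSPB7, KLHL41 and SMPX are shown because each holds a match to the MEF2 motif (capitals), bound by the MEF2 factors of muscle; in HSPB7 the TATA motif TATAAA is in capitals as well. They are again 140 bases, 5′ to 3′ on the gene's strand, from RefSeq GRCh38.p14: HSPB7 from chr1:16018044-16018183 (minus strand), KLHL41 from chr2:169509562-169509701 (plus strand) and SMPX from chrX:21758117-21758256 (minus strand).
HSPB7: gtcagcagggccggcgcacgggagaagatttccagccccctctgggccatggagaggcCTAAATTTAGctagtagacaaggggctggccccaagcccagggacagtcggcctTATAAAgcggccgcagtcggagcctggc
KLHL41: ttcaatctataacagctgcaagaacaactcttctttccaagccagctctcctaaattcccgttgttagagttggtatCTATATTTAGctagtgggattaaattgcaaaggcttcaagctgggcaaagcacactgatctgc
SMPX: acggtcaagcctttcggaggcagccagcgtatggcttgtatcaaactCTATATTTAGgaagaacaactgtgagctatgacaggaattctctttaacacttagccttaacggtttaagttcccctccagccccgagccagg
Of the 25 genes named highest with both inhibitors, 20 had a promoter, and the motif was found on either strand in 4 of them (20%), HSPB3 being the other. It was found in 0.535% of all promoters, in 0.31% of those of genes detected on both arrays and in 0.71% of those of genes at least 2-fold higher with both inhibitors. Among the 17 promoters of genes named highest with insulin it was found in 0, and in 0.473% of those of genes at least 2-fold higher with insulin.

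Calcium handling, which couples excitation to contraction, showed a split between close relatives. Of 10 genes measured on both arrays, 6 were past 2-fold towards both inhibitors and 0 towards insulin. Phospholamban (PLN), which restrains the calcium pump, read 5.60 with insulin, 6.93 in the control, 8.66 with IWP2, 10.19 with LY294002 and 9.81 with both inhibitors. Sarcolipin (SLN), its atrial relative, went the other way: it was detected only with insulin of the pair, at 11.47, and was at least 64.6-fold higher. The pump itself, ATP2A2, was higher with both inhibitors by 1.44. The release channel RYR2 and the sodium-calcium exchanger SLC8A1 were detected only there, at least 4.68 and 8.49-fold higher. KCNA5, an atrial potassium channel, and HCN4, a pacemaker channel, were detected with insulin and not with both inhibitors, at least 3.77 and 1.72-fold higher.

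The connexins, which form gap junctions, also diverged. GJA1, the connexin of working heart muscle and many other tissues, read 9.86 with insulin, 9.96 in the control, 9.19 with IWP2, 7.39 with LY294002 and 7.26 with both inhibitors. GJA3, a connexin known from the lens, read 5.63 with insulin, 5.85 in the control, 8.72 with IWP2, 9.07 with LY294002 and 9.36 with both inhibitors. Insulin was therefore higher by 2.61 for the former and both inhibitors by 3.73 for the latter, with the 3 other arrays between the ends except for the control's GJA1.

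Cardiac transcription regulators were not a uniform group. Of 21 measured on both arrays, 6 passed 2-fold towards both inhibitors and 3 towards insulin, and 7 more were seen only with both inhibitors (5 past 2-fold). NKX2-5, the early cardiac homeobox factor, and IRX4, a ventricular factor, were at least 14.4 and 18.0-fold higher with both inhibitors. MEF2C, which drives muscle genes, was at least 6.48-fold higher. HOPX, a homeodomain-only cofactor of cardiac and other progenitors, was higher with insulin by 2.95, the Notch target HEY1 by 2.30 and HAND1, a factor of the left ventricle and extraembryonic mesoderm, by 1.49. Of the secreted heart products, EDN1 and NPPB were higher with insulin by 1.43 and 1.24. NPPA was undetected with insulin and read 6.12 with both inhibitors, at least 1.74-fold higher, a bound under 2-fold. CORIN was also detected only with both inhibitors of the pair, at least 2.40-fold higher.

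**Figure D3:**
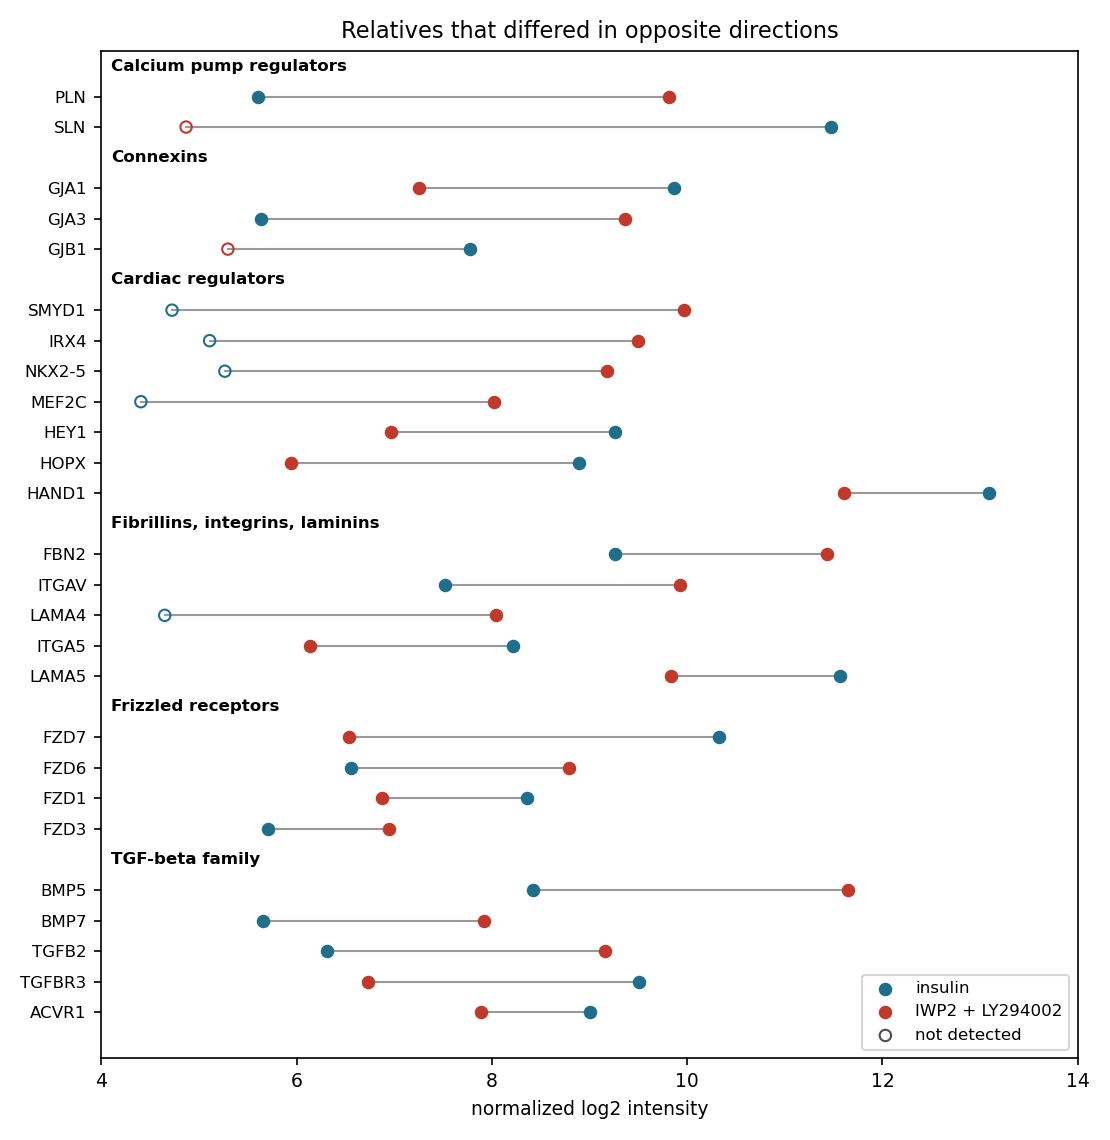
Normalized log2 intensity (horizontal axis) with insulin and with both inhibitors for sets of related genes that lay on opposite sides, 1 row a gene and 1 array a condition, with open circles for values not detected. SLN and GJA1 are higher with insulin while PLN and GJA3 are higher with both inhibitors; FZD7 is plotted by 1 of its probes, and the other differs by -0.11.

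Genes of muscle energy supply leaned towards both inhibitors. CKM, the creatine kinase of muscle, read 6.42 with insulin, 7.63 in the control, 10.99 with IWP2, 11.41 with LY294002 and 11.24 with both inhibitors. It was higher by 4.82, the second highest ratio towards both inhibitors among genes measured on both arrays, after the neuronal membrane protein LRRN3 (4.85). ENO3, the muscle enolase, read 7.93 with insulin and 11.94 with both inhibitors. PPARGC1A, a coactivator of mitochondrial biogenesis, differed by 3.89, and myoglobin (MB), which stores oxygen, by 3.33. Of 15 members measured on both arrays, 7 were past 2-fold in this direction and 1 in the other, CKB, the creatine kinase of brain and many other tissues (1.01).

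The respiratory chain had 1 direction and a range of sizes. All 37 detected subunits had lower values with insulin, 17 of the 36 measured on both arrays past 2-fold, and the median was -0.99. The highest differences were in COX7B, a subunit of cytochrome oxidase (2.07), and CYCS, the soluble electron carrier cytochrome c (1.74). COX7B read 10.08 with insulin, 10.46 in the control, 11.98 with IWP2, 12.37 with LY294002 and 12.15 with both inhibitors. In fatty acid oxidation, the main fuel pathway of mature heart, 3 of 17 were past 2-fold towards both inhibitors. That share was close to the 15.3% over all genes. Of the 17, 13 lay within 2-fold and 6 had higher values with insulin. ACADM, an acyl-CoA dehydrogenase, was higher with both inhibitors by 1.80. SLC25A20, the carnitine carrier, was past 2-fold towards insulin, by 1.31, though its other probe gave 0.91.

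Components of insulin and IGF signaling were read next, since insulin and a PI3K inhibitor act on this pathway. IGF1 and its receptor IGF1R were not detected on any of the 5 arrays, and the insulin receptor INSR was detected only with IWP2 and with LY294002, at 5.51 and 5.89. The fetal growth factor IGF2 read 7.83 with insulin and 6.89 in the control and was not detected on the inhibitor arrays, so that insulin was at least 5.17-fold higher than both inhibitors. Its clearance receptor IGF2R read 10.29 with insulin, 8.99 in the control, 8.88 with IWP2, 7.44 with LY294002 and 8.58 with both inhibitors.

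The IGF-binding proteins, which carry and release IGFs outside the cell, differed among themselves. IGFBP3, the main carrier in serum, read 12.23 with insulin, 10.84 in the control, 8.59 with IWP2, 8.66 with LY294002 and 6.48 with both inhibitors. IGFBP5 and IGFBP4 were higher with insulin by 3.72 and 2.76 and IGFBP2 by 1.44, whereas IGFBP1 read 5.45 and 5.53. HTRA1, a protease that cuts IGF-binding proteins, was the list's only member past 2-fold towards both inhibitors, by 1.69. Over the list, 8 of 16 genes measured on both arrays were past 2-fold towards insulin, with a median of 1.02.

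Intracellular parts of the pathway differed less. Of 14 genes of PI3K, AKT and mTOR signaling measured on both arrays, 1 was past 2-fold towards insulin and 1 towards both inhibitors. FOXO factors are held inactive by AKT, and their listed targets were mixed: PIK3IP1, an inhibitor of PI3K, and BCL6, a repressor, were higher with insulin by 1.52 and 1.47. The stress protein SESN1 and the ubiquitin ligase FBXO32, which is also a muscle gene, were higher with both inhibitors by 1.61 and 1.55. TRIM63, which is also in the sarcomere list, was detected only with both inhibitors of the pair, at least 5.18-fold higher. Of 14 members of the FOXO list measured on both arrays, 4 were past 2-fold towards insulin and 2 towards both inhibitors. The median of the FOXO list was 0.65.

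Imprinted genes that control fetal growth had 7 of 13 past 2-fold towards insulin and 0 towards both inhibitors. Of the 13, 5 had lower values with insulin, and the list median was 0.36 over 17 detected members. H19, a long noncoding RNA that neighbours IGF2, read 13.33 with insulin, 12.94 in the control, 10.28 with IWP2, 10.01 with LY294002 and 6.98 with both inhibitors. The cyclin-dependent kinase inhibitor CDKN1C, from the same imprinted region, read 11.23 with insulin and 8.08 with both inhibitors. NDN, an imprinted growth suppressor of neurons, read 10.60 with insulin and 10.64 with both inhibitors.

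WNT components split by member, with 6 of 15 ligand and receptor genes past 2-fold towards insulin and 6 towards both inhibitors. The list median was 0.42, and -0.43 over members measured on both arrays alone. Among ligands, WNT11, of the non-canonical branch and active in heart formation, read 5.75 with insulin, 5.61 in the control, 7.89 with IWP2, 7.93 with LY294002 and 7.86 with both inhibitors. WNT2, a ligand of early heart and liver mesoderm, was undetected with insulin and at least 4.41-fold higher with both inhibitors, and WNT5B was higher there by 1.26.

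Receptors lay on either side. FZD7 read 10.33 with insulin, 8.59 in the control, 8.64 with IWP2, 7.41 with LY294002 and 6.54 with both inhibitors, a difference of 3.79. Its other detected probe, however, gave a difference of -0.11, so the direction of FZD7 is not settled by these arrays. FZD6 was higher with both inhibitors by 2.23, and FZD3 by 1.24. The co-receptor LRP5 was higher with insulin by 1.77.

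Of 6 secreted WNT antagonists measured on both arrays, 4 were past 2-fold towards insulin and 0 towards both inhibitors. FRZB, a decoy that binds WNT proteins, read 11.62 with insulin, 10.82 in the control, 8.02 with IWP2, 8.27 with LY294002 and 6.79 with both inhibitors. DKK1, which blocks the LRP co-receptors, was higher by 2.19, and the decoy SFRP5 was at least 8.07-fold higher. SFRP1, another decoy, read 10.63 and 10.56.

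Targets of canonical WNT signaling were read at day 10, which was 5 days after the end of treatment. Of 9 measured on both arrays, 3 were past 2-fold towards insulin and 1 towards both inhibitors, with 5 within 2-fold. A further 2, MYC and NKD2, were detected only with insulin, at least 2.53 and 2.46-fold higher. AXIN2, the general feedback target, read 7.90 with insulin and 7.74 with both inhibitors. CCND1, the D-type cyclin, was higher with insulin by 2.89, the transcription factor LEF1 by 1.74 and SP8 by 1.33. TNFRSF19, a receptor of progenitor cells, was higher with both inhibitors by 3.29, and the list median was 0.20.

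BMP signaling genes leaned towards both inhibitors, with 5 of 13 past 2-fold in that direction and 1 towards insulin. BMP5, a ligand of early heart, read 8.42 with insulin, 9.41 in the control, 10.55 with IWP2, 10.57 with LY294002 and 11.64 with both inhibitors. The extracellular modulator BMPER and the ligand BMP7 were higher with both inhibitors by 2.96 and 2.26. The direct targets ID1, ID2 and ID3 differed by 0.68, 0.12 and 0.06, all under 2-fold, while ID4 was higher with both inhibitors by 2.52. Among TGF-beta and FGF genes, TGFB2, a ligand of heart cushion formation, and FGF13, an intracellular regulator of sodium channels, were higher with both inhibitors by 2.84 and 2.83. The co-receptor TGFBR3 was higher with insulin by 2.78.

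Cell division genes leaned towards insulin. Of 27 mitotic genes measured on both arrays, 12 were 2-fold or more higher with insulin and 0 with both inhibitors, and 5 more, all past 2-fold by their bound, were detected only with insulin; the median was 1.08. CDC20, an activator of the anaphase complex, read 9.80 with insulin, 9.61 in the control, 8.88 with IWP2, 9.39 with LY294002 and 7.25 with both inhibitors. The survivin gene BIRC5 and the kinesin KIF20A, both of cytokinesis, were each higher by 2.28. BUB1, a checkpoint kinase, read 6.35 and 7.08, among the 6 members whose value was lower with insulin. DNA replication genes differed less, with 6 of 24 past 2-fold towards insulin, 0 towards both inhibitors and a median of 0.55. UHRF1, which maintains DNA methylation, was higher with insulin by 1.82, and PCNA, the replication clamp, by 0.13. A further 4 members were detected only with insulin, 2 of them past 2-fold. POLA1 was detected only with both inhibitors of the pair, at least 2.29-fold higher.

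Tubulins, the subunits of microtubules, had 5 of 10 past 2-fold, all towards insulin, with TUBB2A and TUBB higher by 2.65 and 2.32. The D cyclins CCND2 and CCND3 were higher with insulin by 1.39 and 1.71.

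Serine synthesis and the targets of ATF4, the factor of the amino acid response, had 14 of 21 measured members past 2-fold towards insulin and 0 towards both inhibitors. PHGDH, the first enzyme of serine synthesis, read 12.90 with insulin, 12.15 in the control, 11.65 with IWP2, 11.02 with LY294002 and 9.79 with both inhibitors. PSAT1, the next enzyme, and SLC7A5, an amino acid importer, were higher by 3.36 and 3.88. ATF4 itself was higher by 0.73, under 2-fold, and its target DDIT3 read 6.39 with insulin and 7.13 with both inhibitors.

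In lipid synthesis, 9 of 25 were past 2-fold towards insulin and 3 towards both inhibitors. FASN, fatty acid synthase, read 13.41 with insulin, 12.94 in the control, 12.13 with IWP2, 11.25 with LY294002 and 10.46 with both inhibitors. ACLY and ACACA, which supply its substrates, were higher with insulin by 2.11 and 1.80 (0.90 by ACACA's other probe), whereas SC5D, a late enzyme of cholesterol synthesis, was higher with both inhibitors by 2.27. HMGCS1, an early enzyme of the same path, differed by 0.39.

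In the list of glycolysis and hypoxia genes 7 of 24 were past 2-fold towards insulin and 2 towards both inhibitors. The glucose transporters SLC2A1 and SLC2A3 were higher with insulin by 3.32 and 2.07, and the hypoxia-inducible NDRG1 by 2.55. The enzymes GAPDH, TPI1 and PGK1 differed by 0.19, 0.32 and 0.19, all under 2-fold. GPI, the second enzyme of glycolysis, was higher with both inhibitors by 1.57.

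Protein folding in the endoplasmic reticulum, which secretory cells rely on, had a median of 0.47, with 4 of 23 past 2-fold towards insulin and 2 towards both inhibitors. FKBP11, a folding enzyme of secretory cells, was detected only with insulin of the pair and was at least 50.7-fold higher. Among stress genes, the oxidoreductase NQO1 was higher with insulin by 3.40 and the chaperone HSP90AA1 with both inhibitors by 1.63. Of the 11 genes of p53 response and apoptosis measured on both arrays, 1 was past 2-fold towards insulin and 3 towards both inhibitors.

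Housekeeping groups were read for comparison. None of 35 cytosolic ribosomal protein genes measured on both arrays passed 2-fold, and the list median was 0.06. These genes were bright, with median levels of 12.79 with insulin and 12.70 with both inhibitors, so they give no scale for dim genes. Of 12 common reference genes, 9 lay within 2-fold, with B2M, YWHAZ and PPIA differing by 0.02, 0.01 and 0.30. ACTB, cytoplasmic actin, and GUSB, a lysosomal enzyme, were higher with insulin by 1.51 and 1.14, and TFRC, the transferrin receptor, was higher with both inhibitors by 2.24.

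**Figure D4:**
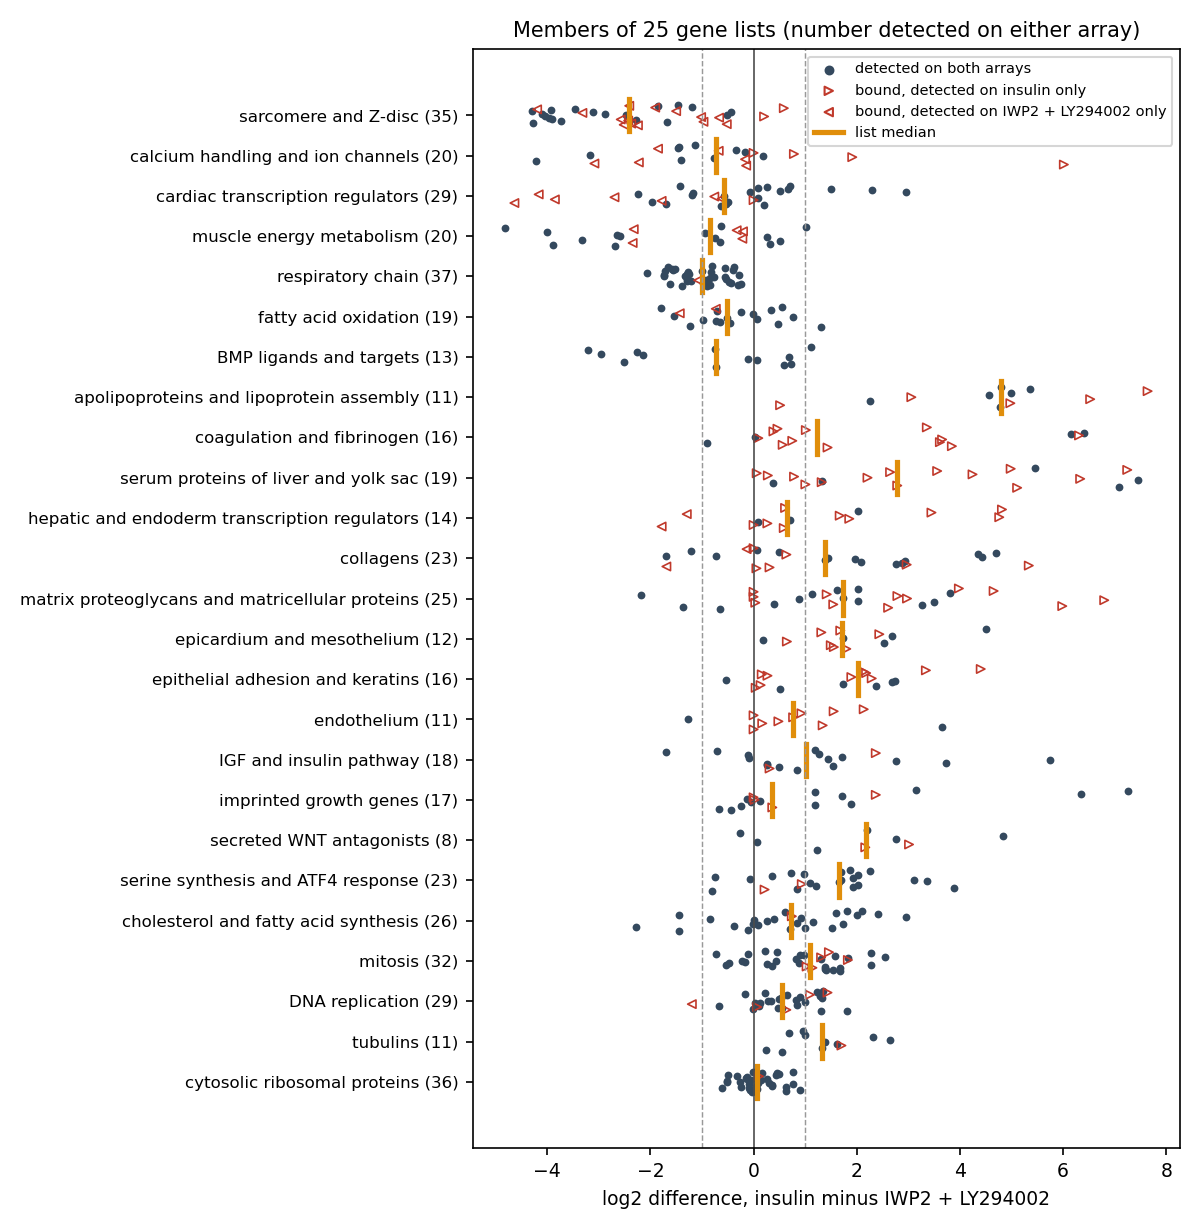
Difference in log2 intensity, insulin minus both inhibitors (horizontal axis), for the members of 25 gene lists detected on at least 1 of the arrays, 1 row a list, with the list median marked and genes detected on 1 array placed at their bound. Apolipoproteins (median 4.79) and serum proteins lie farthest to the right, sarcomere genes (median -2.41) farthest to the left, and ribosomal proteins at about 0.

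Positional genes differed strongly in a few members. HOXB5, a homeobox gene of the trunk, read 10.17 with insulin, 10.12 in the control, 7.34 with IWP2, 9.10 with LY294002 and 5.46 with both inhibitors. MSX1, a factor of limb and lateral mesoderm, read 11.46 with insulin, 11.57 in the control, 9.30 with IWP2, 10.64 with LY294002 and 6.78 with both inhibitors, and PITX1, a hindlimb and lateral plate factor, was at least 17.9-fold higher with insulin than with both inhibitors. LHX2, a limb bud and brain factor, was higher by 4.17. Of 8 limb and lateral plate factors measured on both arrays, 3 were past 2-fold towards insulin and 4 were within 2-fold. The remaining factor, ALX1, was higher with both inhibitors, at 7.61 against 5.85 with insulin. A further 4 members were detected only with insulin, 3 of them past 2-fold. The other HOX genes detected differed less, HOXB4 by 1.64 and HOXB6, which read 6.47 and 6.72, and MEIS2, a HOX cofactor, was 9.40 and 10.11. Of the pluripotency list, LIN28A, an RNA-binding protein of early embryos, read 10.07 with insulin and 8.22 with both inhibitors, and ZFP42 was detected with insulin and not with both inhibitors, at least 5.42-fold higher.

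Lists of other fates were mostly dim. Retinoic acid genes had 2 of 7 members measured on both arrays past 2-fold towards insulin, with a median of 0.93. The neural list held 6 detected members and a median of 0.14: GAP43, a growth cone protein, was at least 9.79-fold higher with insulin and NES, an intermediate filament of progenitors, was higher with both inhibitors by 1.77. MAP2, PAX6 and SOX1 were not detected on any array. Medians were 0.74 for 7 neural crest genes, 0.34 for 5 cartilage genes, -0.41 for 6 genes of presomitic mesoderm and primitive streak and 0.78 for 2 kidney genes. Of the skeletal muscle list only ACTA1, an actin that fetal heart also uses, was detected on either array, higher with insulin by 1.32.

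Since liver, matrix, epithelial and cardiac muscle markers all differed between the arrays, their levels are given beside the differences in growth, metabolic and division genes. The median level of the sarcomere list was 6.04 with insulin and 8.61 with both inhibitors, and that of the serum protein list 8.70 and 4.91, the last under the lowest detected signal of that array, 5.46. The part of these markers in the other differences was not tested.

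The arrays compared were the ends of the series for many but not all of these genes. Of the 1051 genes higher with insulin, the insulin and both-inhibitor arrays were the highest and lowest of the 5 in 492 (46.8%), and of the 1194 higher with both inhibitors in 605 (50.7%), against 20.7% of all 7782 genes; the sets were chosen on these ends. Median levels of the insulin-high set were 8.68 with insulin, 8.44 in the control, 7.69 with IWP2, 7.51 with LY294002 and 6.95 with both inhibitors. The inhibitor-high set read 6.94, 7.39, 8.12, 8.11 and 8.58 in that order. The control lay nearer to insulin than to both inhibitors in 920 and 1003 of these genes, and in 68.5% of all genes.

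A second probe gives the only repeat measurement of a gene within an array. For 476 genes past 2-fold, 513 other probes were detected on both arrays, and 491 (95.7%) had the same direction. Of the 513 probes, 293 (57.1%) were themselves past 2-fold the same way, and 2 were past it the other way. The 293 were 90 of 189 probes for genes higher with insulin and 203 of 324 for genes higher with both inhibitors. Over all genes the median gap between the differences of a gene's probes was 0.38, and the 95th percentile 1.26, so a difference near 1 in a single probe lies within the range that probes of a gene show.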

How the data were processed

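Per the labels' protocols, RNA from Qiagen columns was labelled and hybridized to Illumina expression BeadChips, with 1 array for each of 5 conditions, grouped by treatment label. The authors deposited a non-normalized intensity for 47299 probes and, per the file headers, a detection p-value for each. The deposited value table holds log2 values made by steps not given in the sources used here, and it served as an alternative only.

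Background was removed by normexp, with negative-control mean and variance inferred from the detection p-values, and values were quantile-normalized across all 5 arrays and put on the log2 scale with an offset of 16 (limma 3.58.1, R 4.3.3). Later steps used Python 3.11.15, numpy 2.4.6, pandas 2.3.3 and matplotlib 3.10.9, and the steps were tested on simulated data. Probes were named from the platform annotation (30106 with 1 symbol, 8 with several, 17185 with none there), and the probe with the highest mean over the 5 arrays stood for each of 20041 genes, of which 6690 had several. Differences are insulin minus both inhibitors. Precision is limited by having 1 array a condition, and no p-value or standard deviation between samples was computed.

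The genes named were taken from the 15 highest differences and 10 highest bounds either way. They also came from at most 6 members of each of 53 lists, members opposing their list by 1 or more, and 13 chosen genes. Not every gene that met these rules is named above, so the opposing members given for a list may be incomplete. A further 37 were named after their values were seen, besides MYL2, which neither array detected. The comparison, lists and members were chosen with earlier results of these data known. Y-linked genes and placeholder symbols entered the counts only, and TNNT2 was not analysed here. Promoters are those of RefSeq GRCh38.p14, the first start listed for a gene. Alternatives were no background correction, other scalings, an offset of 50, the 2 arrays alone, a detection threshold of 0.05 or none, the mean of detected probes, and the deposited log2 values.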

Additional observations from a re-analysis of the deposited data

How the results depend on the processing

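Without background correction the counts of genes at least 2-fold higher were 551 with insulin and 587 with both inhibitors, and with no detection filter the insulin count was 1784; the other 15 recomputed counts lay within 1.5 times the reported ones. Under the scalings tried, insulin's share of the genes past 2-fold ran from 46.8% to 51.0%. The sarcomere median was -1.33 without background correction and -1.76 with an offset of 50. The serum protein median was 1.54 and 2.11 under these settings and 1.95 with no detection filter. The matrix protein median was 1.12 without background correction and 0.96 with no filter. An alternative chosen after seeing the data took only members detected on both arrays, which gave -3.11 for sarcomere, 5.46 for serum proteins and 1.97 for collagens. Under it 4 medians changed sign: natriuretic peptides from -0.63 to 0.37, connexins from 0.26 to -0.27, WNT ligands and receptors from 0.42 to -0.43 and heat shock genes from 0.23 to -0.08. The skeletal muscle median was -0.05 at a detection threshold of 0.05 and -0.09 with no filter, where the neural median was -0.02. With the mean of detected probes TPM2, a smooth muscle tropomyosin, was -0.40, against 0.80 for the probe used. In all, 488 of the recomputed list medians and 2941 of the recomputed gene differences stayed within 0.58, and 34 and 361 moved further without a change of sign. Of the gene differences, 189 moved by more than this without background correction and 178 did not, and 82 moved with an offset of 50. The causes were not tested. No paired analysis was possible because each condition had 1 array. Signal near background limits the dim genes, whose bounds depend on the background correction and the offset.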
